A study of Rattus norvegicus with 16 samples.

Results

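Hepatocyte growth factor and neurotrophic factor genes were followed in rat myelinating cultures treated with variants of fibroblast growth factor 2 (FGF2). The set holds 9 genes, Hgf, Met, Bdnf, Ntf3, Gdnf, Vgf, Ntrk2, Ntrk3 and Ngfr, and a member was taken as the transcript cluster (the array's unit for a gene) whose only symbol was that of the gene, with the highest mean over 16 arrays where there were several. Each of 6 members, Hgf, Met, Bdnf, Ntf3, Vgf and Ngfr, had exactly 1 such cluster, out of 15236 genes with a cluster of their own, so the mean level decided nothing. Gdnf, Ntrk2 and Ntrk3 are not analysed here. The genes were chosen by theme with results of these arrays already known, among them the fall of Hgf with humanFGF2 and F2V2 against Control, so the list was in part selected on these measured differences. All differences of Hgf, including those with wtFGF2, which use the same arrays, are therefore given as a description without a test. The study also lists Bdnf, from these arrays, as higher with FGF2 than with F2V2. All differences of Bdnf, including those from Control, are therefore likewise a description.

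All cultures came from Sprague-Dawley rats and were made of E15.5 spinal cord cells, plated on a layer of astrocytes grown from neurospheres of postnatal day 1 striata, so each array measured the RNA of a mixture of neurons and glia. At 18 days in vitro they received recombinant human FGF2 (humanFGF2), F2V2 or a protein labelled wtFGF2, or were left untreated (Control), and RNA was collected 24 h later, at 19 days. F2V2 is a form of FGF2 that lacks 26 amino acids at its N-terminus and was made to act on the receptor FGFR1. Both humanFGF2 and F2V2 were used at 100 ng/ml. The group wtFGF2 is absent from the study's text, and its dose is not given in the sources used here. There were 4 arrays per group and 16 in all, and log2 values of 16377 named transcript clusters were compared. The legend of the study's array figure calls the replicates technical and the deposited design speaks of independent cultures, so every p-value measures the spread between these arrays only.

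HGF is a secreted factor that is released as an inactive precursor, is cleaved by serine proteases and then activates MET, a receptor tyrosine kinase. The neurotrophins BDNF and NT-3 (Ntf3) bind the Trk receptors encoded by Ntrk2 and Ntrk3 and share a further receptor of the tumour necrosis factor receptor family, encoded by Ngfr. GDNF is a separate factor that acts through RET, and VGF is a protein of dense core granules, induced by neurotrophins and cleaved into peptides that neurons release. In the nervous system these factors are known for their actions on the survival and growth of neurons and on cells of the oligodendrocyte lineage.

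Bdnf and Vgf differed between ligands, and their transcription is known in other settings to respond to cAMP and neuronal activity. The start sites of the members were therefore searched on both strands for the cAMP response element (CRE, TGACGTCA) and its partial site (TGACG, which every CRE contains). The Egr site (GCGTGGGCG), an ETS site (CCGGAAGT) and a loose form of the AP-1 site (TGANTCA, with any base in the middle) were searched as well. RefSeq windows of 300 bases (assembly GRCr8) were available for 5 of the 6 members, 12 windows in all, of which 3 held a match: the single Vgf window and 2 of the 6 Bdnf windows. The single windows of Hgf and Met and the 3 of Ntf3 held none of these letters. The bases upstream of the start are shown for these windows, in whole for Vgf and around the match for Bdnf. Capitals mark the CRE of Vgf, the partial site of Bdnf (read on the opposite strand) and the loose AP-1 match of Bdnf.
Vgf, chr12:25277021-25277270, minus strand: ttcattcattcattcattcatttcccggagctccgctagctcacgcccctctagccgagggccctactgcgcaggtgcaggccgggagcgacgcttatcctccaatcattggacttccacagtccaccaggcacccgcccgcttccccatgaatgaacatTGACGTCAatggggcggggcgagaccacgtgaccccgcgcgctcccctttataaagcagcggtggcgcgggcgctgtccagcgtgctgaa
Bdnf, chr3:116637758-116637857, plus strand: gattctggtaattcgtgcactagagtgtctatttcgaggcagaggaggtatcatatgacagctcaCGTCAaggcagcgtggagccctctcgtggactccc
Bdnf, chr3:116621771-116621870, plus strand: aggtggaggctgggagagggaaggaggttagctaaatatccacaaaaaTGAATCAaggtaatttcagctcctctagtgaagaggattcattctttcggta
The CRE of Vgf begins 90 bases before the start and the partial site of Bdnf 35 bases before the start of its window. The loose AP-1 match, TGAATCA with A in the middle, begins 152 bases before the start of another. Of all 33469 rat windows of this length, 1.83% held the CRE, 21.2% the partial site, 7.33% the loose AP-1 form, 0.544% the Egr site and 3.81% the ETS site. A match describes these letters only, and the arrays did not measure binding.

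Hgf, the ligand of MET, was lower in every treated group. Its log2 values were 6.44, 6.38, 6.39 and 6.38 with humanFGF2, 7.50, 7.31, 7.67 and 7.33 with F2V2, 7.26, 7.13, 6.98 and 7.24 with wtFGF2, and 9.77, 9.76, 9.84 and 9.77 in Control cultures. No array of a group overlapped with those of another, and the order of the levels was Control, F2V2, wtFGF2 and humanFGF2, from high to low. The log2 difference from Control was -3.39 with humanFGF2 (standard error 0.07, 95% interval -3.54 to -3.24, 10.5-fold) and -2.33 with F2V2 (standard error 0.07, interval -2.48 to -2.18, 5.04-fold). Ordered by log2 difference, Hgf came 1st from the bottom of the 16377 clusters in both comparisons.
With wtFGF2, Hgf was lower than in Control by a log2 difference of -2.63 (standard error 0.07, interval -2.79 to -2.47), a difference of 6.20-fold and the 5th from the bottom. At the shared dose, humanFGF2 left Hgf 1.05 log2 units under F2V2 (difference -1.05, interval -1.21 to -0.90, 2.08-fold). Hgf was 0.76 log2 units higher with wtFGF2 than with humanFGF2 (interval 0.60 to 0.91, 1.69-fold). The neighbouring levels with wtFGF2 and F2V2 differed by -0.30 (interval -0.46 to -0.14), which is 1.23-fold.

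Met, the receptor, moved the other way from its ligand. Its log2 values were 8.09, 8.18, 8.18 and 7.97 with humanFGF2, 7.98, 7.84, 8.07 and 7.85 with F2V2, 7.93, 7.94, 7.88 and 7.93 with wtFGF2, and 7.18, 7.06, 7.17 and 7.01 in Control cultures. All 12 treated arrays lay above all Control arrays, while the ligand groups lay close to each other and F2V2 overlapped with both others. Met rose over Control by a log2 difference of 1.00 with humanFGF2 (standard error 0.07, adjusted p = 7.59e-08 in limma), 0.83 with F2V2 (standard error 0.07, adjusted p = 1.52e-06) and 0.82 with wtFGF2 (standard error 0.06, adjusted p = 3.56e-08), which is 2.00-, 1.78- and 1.76-fold.
Between ligands, no difference of Met passed the test. It was 0.17 for humanFGF2 minus F2V2 (interval 0.02 to 0.32, adjusted p = 0.115), -0.18 for wtFGF2 minus humanFGF2 (interval -0.32 to -0.05, adjusted p = 0.102) and -0.01 for wtFGF2 minus F2V2 (interval -0.15 to 0.12, adjusted p = 0.936). The widest of these intervals stay within 0.32 log2 units of 0.

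**Figure D1:**
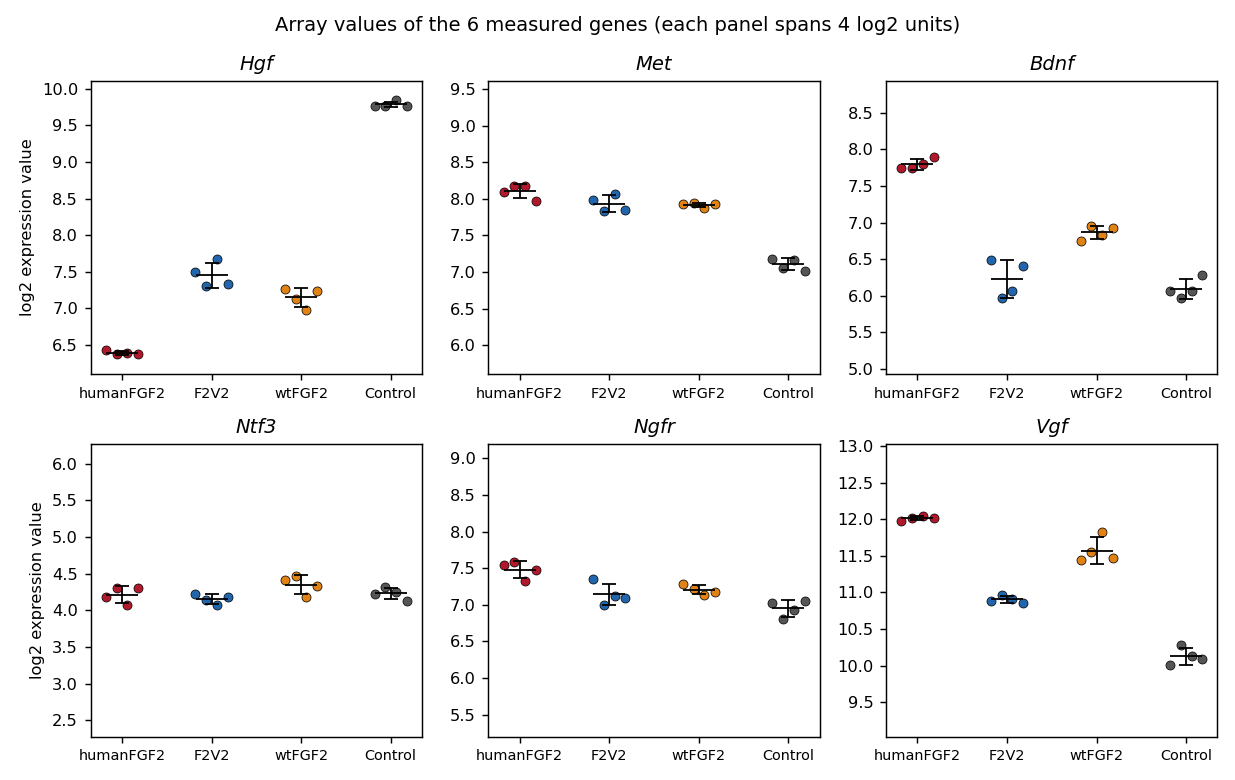
Log2 expression values of the 6 measured genes by group (humanFGF2, F2V2, wtFGF2 and Control, 4 arrays each), where points are arrays and bars the mean and SD. Hgf fell to a mean of 6.40 with humanFGF2, against 9.78 in Control cultures, Met lay at 7.92 to 8.10 in the treated groups, against 7.11 in Control cultures, and Bdnf at 7.80 with humanFGF2 and 6.23 with F2V2, against 6.09 in Control cultures.

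Bdnf, which encodes the ligand of the receptor made from Ntrk2, separated the ligands. Its log2 values were 7.74, 7.74, 7.80 and 7.90 with humanFGF2, 6.49, 5.97, 6.06 and 6.41 with F2V2, 6.75, 6.95, 6.83 and 6.93 with wtFGF2, and 6.06, 5.97, 6.07 and 6.28 in Control cultures. The humanFGF2 arrays were highest and the wtFGF2 arrays next, without overlap, whereas F2V2 arrays overlapped with Control arrays. Bdnf was above Control by a log2 difference of 1.70 with humanFGF2 (standard error 0.11, interval 1.47 to 1.93, 3.25-fold). With wtFGF2 the difference was 0.77 (standard error 0.10, interval 0.56 to 0.98, 1.70-fold), and with F2V2 it was 0.14 (interval -0.09 to 0.37).
The differences of Bdnf, from Control and between ligands, are given without a test. The study already reports it, from these arrays, as higher with FGF2 than with F2V2. Bdnf was higher with humanFGF2 than with F2V2 by 1.56 log2 units (standard error 0.11, interval 1.33 to 1.80, 2.95-fold), the 32nd highest of all clusters in that comparison. It was lower with wtFGF2 than with humanFGF2 (difference -0.93, 1.91-fold) and higher with wtFGF2 than with F2V2 (difference 0.63, 1.55-fold).

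Ntf3, which encodes NT-3, the ligand of the receptor made from Ntrk3, lay under a log2 value of 5 on every array, near the floor of these arrays. Its log2 values were 4.18, 4.30, 4.07 and 4.31 with humanFGF2, 4.22, 4.14, 4.07 and 4.18 with F2V2, 4.42, 4.47, 4.18 and 4.33 with wtFGF2, and 4.22, 4.32, 4.25 and 4.13 in Control cultures. The groups overlapped, and no fold is given because none of them was measured above the floor. The adjusted p was 0.867 for humanFGF2, 0.389 for F2V2 and 0.204 for wtFGF2 against Control.

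Ngfr, the receptor shared by the neurotrophins, had a small difference. Its log2 values were 7.54, 7.59, 7.32 and 7.47 with humanFGF2, 7.35, 7.00, 7.12 and 7.10 with F2V2, 7.29, 7.22, 7.14 and 7.18 with wtFGF2, and 7.03, 6.80, 6.93 and 7.05 in Control cultures. The humanFGF2 and wtFGF2 arrays lay above all Control arrays, and F2V2 arrays overlapped with both humanFGF2 and Control arrays. Ngfr rose with humanFGF2 by a log2 difference of 0.53 over Control (standard error 0.08, interval 0.35 to 0.71, 1.44-fold, adjusted p = 0.000134), close to the threshold. Without Control replicate 2 the difference was 0.48 (adjusted p = 0.000572), just under 1.4-fold, so this call rests on that array.
With F2V2 the difference was 0.19 (interval 0.01 to 0.37, adjusted p = 0.103). With wtFGF2 it was 0.25 (interval 0.09 to 0.42, adjusted p = 0.0151) and stayed under 1.4-fold. Likewise humanFGF2 exceeded F2V2 by 0.34 (1.26-fold, adjusted p = 0.0105), and wtFGF2 differed from humanFGF2 by -0.27 (1.21-fold, adjusted p = 0.0391) and from F2V2 by 0.06 (adjusted p = 0.735).

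Vgf, the granule protein, was graded over the groups. Its log2 values were 11.98, 12.02, 12.05 and 12.01 with humanFGF2, 10.89, 10.97, 10.91 and 10.85 with F2V2, 11.44, 11.55, 11.83 and 11.47 with wtFGF2, and 10.01, 10.28, 10.13 and 10.09 in Control cultures. No group overlapped with another, and the order from high to low was humanFGF2, wtFGF2, F2V2 and Control. Vgf rose over Control by a log2 difference of 1.89 with humanFGF2 (standard error 0.06, 3.70-fold, adjusted p = 4.46e-11), 0.77 with F2V2 (standard error 0.06, 1.71-fold, adjusted p = 5.05e-07) and 1.44 with wtFGF2 (standard error 0.08, 2.72-fold, adjusted p = 2.81e-10).
Every ligand raised Vgf, and the ligands also differed from each other. It was higher with humanFGF2 than with F2V2 by 1.11 log2 units (interval 0.99 to 1.24, 2.16-fold, adjusted p = 8.59e-08) and higher with wtFGF2 than with F2V2 by 0.67 (1.59-fold, adjusted p = 6.89e-05). Against humanFGF2 it was lower with wtFGF2 by a difference of -0.44 (adjusted p = 0.00119), 1.36-fold and under the threshold, but -0.53 and past it without wtFGF2 replicate 3.

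**Figure D2:**
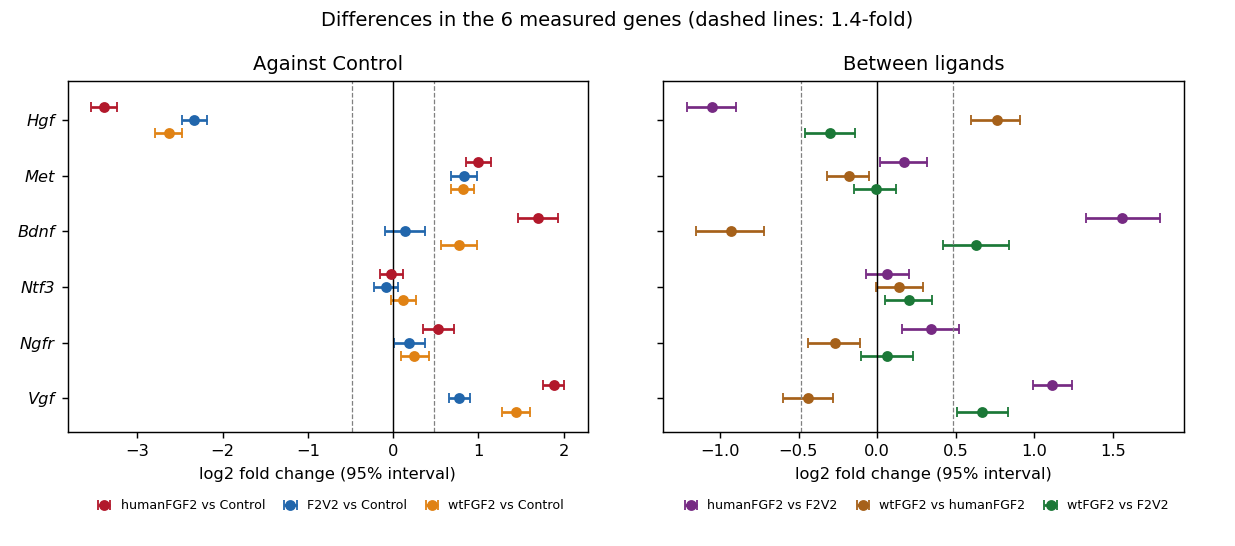
Log2 fold changes of the 6 measured genes with 95% intervals, against Control (left) and between ligands (right), the first-named group minus the second, with dashed lines at 1.4-fold. Bdnf lies at 1.70 with humanFGF2 and 0.14 with F2V2 against Control, whereas Met lies at 1.00 and 0.83.

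Calls required both an adjusted p below 0.05 and a change of 1.4-fold or more. Against Control, humanFGF2 called 5 of the 6 measured members, 4 higher and Hgf lower, where 19.1% of all 16377 clusters were called. F2V2 called 3 of 6, Met and Vgf higher and Hgf lower, against 9.38% of all clusters. wtFGF2 called 4 of 6, Met, Bdnf and Vgf higher and Hgf lower, against 13.1% of all clusters.
The 3 comparisons share the Control arrays. The members' median log2 difference was 0.76, 0.16 and 0.51 in these comparisons, in the order given, where the median of all clusters was 0.02, 0.01 and 0.03. Between ligands, humanFGF2 minus F2V2 called 3 of 6 (Bdnf and Vgf higher, Hgf lower; 5.75% of all clusters), wtFGF2 minus humanFGF2 called 2 (Hgf higher, Bdnf lower; 1.93%) and wtFGF2 minus F2V2 called 2 (Bdnf and Vgf higher; 1.4%). Since the members were listed with results of these arrays known, these counts describe the list and carry no test.

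Of 63 further genes of the same pathways, 50 had a cluster of their own, and they were called about as often as other clusters. Of the 50, humanFGF2 called 6 higher and 5 lower (22%), F2V2 4 higher and 1 lower (10%) and wtFGF2 5 higher and 2 lower (14%) against Control, and their median log2 difference was -0.10, -0.06 and -0.11, in the same order. Between ligands 4, 1 and 0 of them were called for humanFGF2 minus F2V2, wtFGF2 minus humanFGF2 and wtFGF2 minus F2V2.

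Among 12 measured genes around HGF and MET, Cd44, whose product is a surface partner of MET, was called higher with every ligand, and the adaptor Gab1, which carries the MET signal, was called lower with humanFGF2. Cd44 had mean log2 values of 8.84 with humanFGF2, 8.75 with F2V2, 8.75 with wtFGF2 and 7.44 in Control cultures, a log2 difference of 1.4, 1.31 and 1.31 from Control (adjusted p = 2.1e-08, 1.59e-07 and 1.48e-09). Gab1 averaged 9.74 with humanFGF2 and 10.46 in Control cultures (difference -0.71, standard error 0.06, adjusted p = 4.8e-07), and its difference from Control was -0.32 with F2V2 (adjusted p = 0.00124) and -0.46 with wtFGF2 (adjusted p = 8.51e-06), both under 1.4-fold. The other 10 genes of this list, with proteases and protease inhibitors that act on HGF and the related factor MSP with its receptor, held no call against Control.

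Of 14 measured genes of neurotrophin signalling and processing, humanFGF2 called 2 higher and 2 lower, F2V2 2 higher and wtFGF2 2 higher and 1 lower. Nradd, which encodes a death domain protein related to the Ngfr product, rose by a log2 difference of 1.94 with humanFGF2 (adjusted p = 9.35e-11), 1.22 with F2V2 (adjusted p = 2.11e-08) and 1.63 with wtFGF2 (adjusted p = 6.28e-12), and was 0.71 higher with humanFGF2 than with F2V2 (adjusted p = 5.74e-06). Its group means ran in the order of those of Vgf, with 9.71, 9.0, 9.40 and 7.77 for humanFGF2, F2V2, wtFGF2 and Control. Sort1, which encodes the proneurotrophin receptor sortilin, averaged 10.94 with humanFGF2 and 11.11 with wtFGF2, against 11.66 in Control cultures, differences of -0.72 (adjusted p = 4e-08) and -0.55 (adjusted p = 8.73e-08), and its difference with F2V2 was -0.42 (1.34-fold, adjusted p = 1.56e-05).
Sorcs1, a relative of sortilin, fell with humanFGF2 (-0.64 against Control, adjusted p = 1.57e-07) and lay 0.53 log2 units under F2V2 (difference -0.53, adjusted p = 6.36e-06). With wtFGF2 its difference from Control was -0.49 (adjusted p = 1.63e-06), at the fold threshold and not called. The proprotein convertase Furin, which can cleave proneurotrophins, rose with humanFGF2 (0.54, adjusted p = 2.92e-06). The adaptor Shc3 differed from Control by 0.48 with humanFGF2 (1.39-fold, adjusted p = 1.58e-05), 0.50 with F2V2 (1.41-fold, adjusted p = 2.77e-05) and 0.50 with wtFGF2 (1.42-fold, adjusted p = 4.81e-06), so that humanFGF2 fell just short of the fold threshold and the others just past it, and humanFGF2 minus F2V2 was -0.02 (adjusted p = 0.846).

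**Figure D3:**
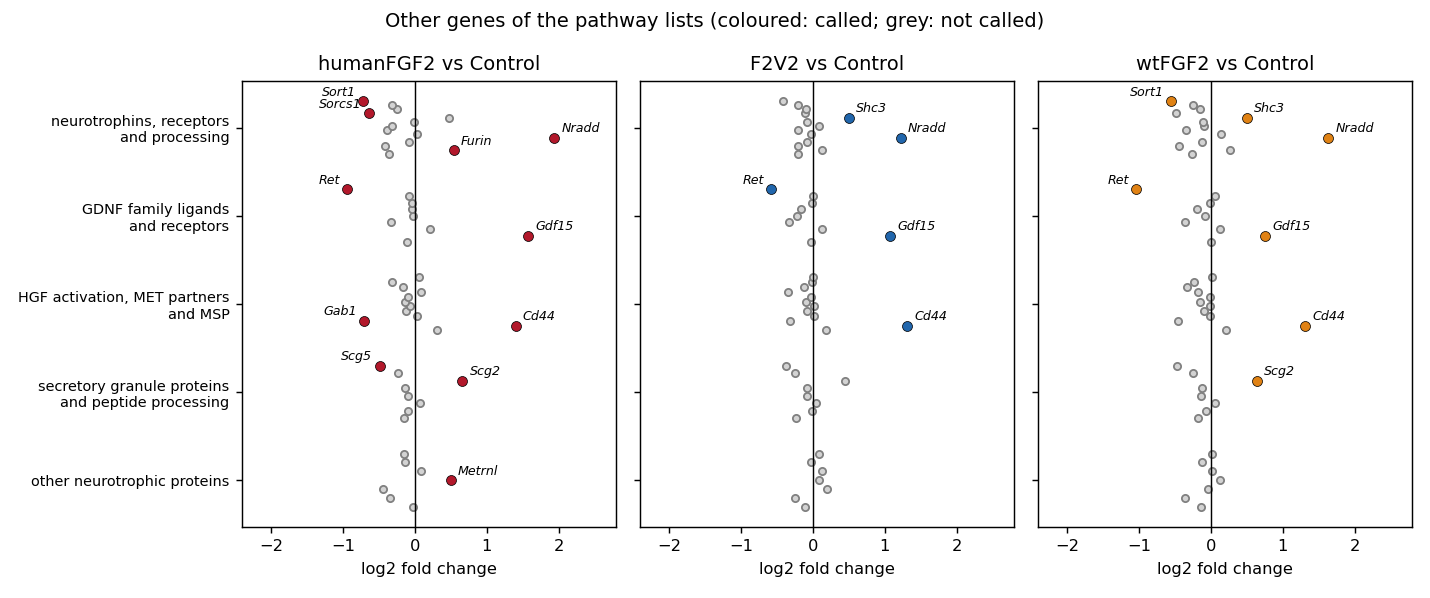
Log2 fold changes of 50 other genes of 5 pathway lists against Control, in panels for humanFGF2, F2V2 and wtFGF2, where coloured and named points are called and grey points are not. Nradd, Cd44 and Gdf15 lie to the right and Ret to the left in each panel.

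The GDNF family list had 9 measured genes, of which the same 2, Ret and Gdf15, were called against Control with each ligand. Of all clusters, 19.1% were called with humanFGF2, 9.38% with F2V2 and 13.1% with wtFGF2. Artn, Pspn, Gfra3 and Gfra4 of this list had means under a log2 value of 5 in every group. Ret, the receptor tyrosine kinase for GDNF, averaged 9.15 with humanFGF2, 9.52 with F2V2 and 9.05 with wtFGF2, against 10.09 in Control cultures (log2 differences -0.94, -0.58 and -1.04, adjusted p = 1.08e-06, 0.000195 and 7.42e-08). Gdf15, a stress-induced factor that signals through RET, averaged 7.24 with humanFGF2, 6.74 with F2V2 and 6.42 with wtFGF2, against 5.67 in Control cultures (differences 1.57, 1.07 and 0.75, adjusted p = 3.16e-06, 0.000223 and 0.00285). Its wtFGF2 arrays overlapped with Control arrays, and it was lower with wtFGF2 than with humanFGF2 (difference -0.82, adjusted p = 0.00797). Gdf15 was also called higher with humanFGF2 than with F2V2 (difference 0.50, 1.42-fold, adjusted p = 0.0443), close to both thresholds and with overlapping arrays.

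Among 8 measured granule proteins and peptide-processing genes related to Vgf by function, Scg2, a granin, was called higher with humanFGF2 (0.66, adjusted p = 7.89e-08) and with wtFGF2 (0.64, adjusted p = 7.32e-09), and Scg5, which encodes a chaperone of a prohormone convertase, lower with humanFGF2 (-0.49, adjusted p = 5.68e-07). Under the fold threshold, Scg2 differed from Control by 0.45 with F2V2 (1.37-fold, adjusted p = 8.51e-06), and Scg5 by -0.37 with F2V2 (adjusted p = 2.26e-05) and -0.47 with wtFGF2 (adjusted p = 2.55e-07). Of 7 other neurotrophic proteins, humanFGF2 called Metrnl higher (0.50, adjusted p = 0.000124), and Metrn was lower with humanFGF2 than with F2V2 (means 9.09 and 9.72, difference -0.63, adjusted p = 4.53e-05).

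Because the arrays measured whole cultures, fewer cells of a type and less RNA per cell cannot be told apart. Marker lists moved with some of the members. The mean log2 value of 3 measured astrocyte markers of 7 spanned 12.13 to 12.19 over the humanFGF2 arrays, 12.48 to 12.55 with F2V2 and 12.33 to 12.37 with wtFGF2, against 12.72 to 12.77 in Control cultures, the same order of groups as Hgf. That of 3 measured oligodendrocyte markers of 6 spanned 9.64 to 9.95, 10.29 to 10.55, 9.99 to 10.10 and 10.72 to 10.84 in the same groups, again in the order of Hgf. The same order held for the group means of 4 oligodendrocyte progenitor markers of 4, at 9.28 with humanFGF2, 9.84 with F2V2, 9.65 with wtFGF2 and 9.90 in Control cultures, and of 5 measured fibroblast and pericyte markers of 6, at 8.79, 9.12, 8.85 and 9.21. The progenitor markers did not move together. Olig2 averaged 10.15 with humanFGF2, 10.44 with F2V2 and 10.33 with wtFGF2, above 9.71 in Control cultures. Pdgfra, Cspg4 and Gpr17 differed from Control by -0.42, -0.83 and -1.71 with humanFGF2. Over arrays, the progenitor list spanned 9.21 to 9.31, 9.73 to 9.97, 9.59 to 9.70 and 9.83 to 9.97, and the fibroblast and pericyte list 8.39 to 9.25, 8.95 to 9.24, 8.61 to 9.16 and 8.74 to 9.44, where the groups overlapped. The mean of 2 measured endothelial markers of 4 spanned 6.13 to 6.35, 5.88 to 6.21, 5.74 to 6.38 and 6.08 to 6.61 and overlapped as well. Of these 2 markers, 1 had a mean under a log2 value of 5 in every group.
These lists shifted by less than Hgf, with a median log2 difference from Control of -0.47 for astrocyte, -0.76 for oligodendrocyte, -0.62 for progenitor and -0.48 for fibroblast and pericyte markers with humanFGF2, and their part in the members' differences was not tested. The mean of 5 measured neuron markers of 8 spanned 11.30 to 11.38 with humanFGF2, 11.32 to 11.45 with F2V2 and 11.27 to 11.45 with wtFGF2, against 11.59 to 11.66 in Control cultures. It lay below Control with every ligand. Vgf was above Control with every ligand, and Bdnf with humanFGF2 and wtFGF2, and any link to the neuron markers was not tested. The mean of 6 measured microglia markers of 6 spanned 7.55 to 7.80, 7.92 to 7.98, 7.67 to 8.03 and 7.53 to 7.87, and did not follow any member's order. The 5 Schwann cell markers, for cells that express Ngfr, spanned 7.43 to 7.52 with humanFGF2, 6.90 to 7.26 with F2V2 and 6.94 to 7.19 with wtFGF2, against 6.94 to 7.51 in Control cultures, and 1 of the 5 had a mean under a log2 value of 5. Of 3 measured sensory neuron markers of 5, 2 lay under 5 in every group.

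The genes whose levels ran most like those of a member over the 16 arrays were found among 3363 clusters (3364 for Ntf3) whose group means spanned at least 1.4-fold. These correlations are across arrays that share 4 treatments, so they describe a shared order of groups and carry no p. For Hgf they were Pc (r = 0.995), Papss2 (r = 0.991), Nt5c1a (r = 0.989), Phyhd1 (r = 0.989) and Plpp3 (r = 0.988), each lowest with humanFGF2 and highest in Control cultures. Papss2, an enzyme that makes the sulphate donor, averaged 6.68 with humanFGF2, 7.62 with F2V2 and 7.15 with wtFGF2, against 9.74 in Control cultures.
For Met they were Adamts1 (r = 0.984), Med13 (r = 0.983) and Spry2 (r = 0.983), the last an inhibitor of receptor tyrosine kinase signalling that FGF is known to induce, with means of 10.77 with humanFGF2, 10.46 with F2V2 and 10.45 with wtFGF2, against 9.40 in Control cultures. For Bdnf they were F2rl2 (r = 0.983), Slc17a1 (r = 0.981) and Smim3 (r = 0.979). F2rl2, a receptor of the thrombin receptor family, averaged 9.34 with humanFGF2, 7.71 with F2V2 and 8.32 with wtFGF2, against 7.54 in Control cultures. For Vgf they were Ercc1 (r = 0.992), Fstl3 (r = 0.988) and Sdc1 (r = 0.987), and Sdc1, a heparan sulphate proteoglycan, averaged 9.93, 8.44, 9.25 and 7.44 in the same groups.
For Ngfr the nearest were Ptgs2 (r = 0.925), Hsd17b7 (r = 0.924) and Crh (r = 0.922). Ntf3, under the floor, had no close match, with Ctla2a (r = 0.631), Cyp4b1 (r = 0.622) and Prg4 (r = 0.489) the nearest.

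**Figure D4:**
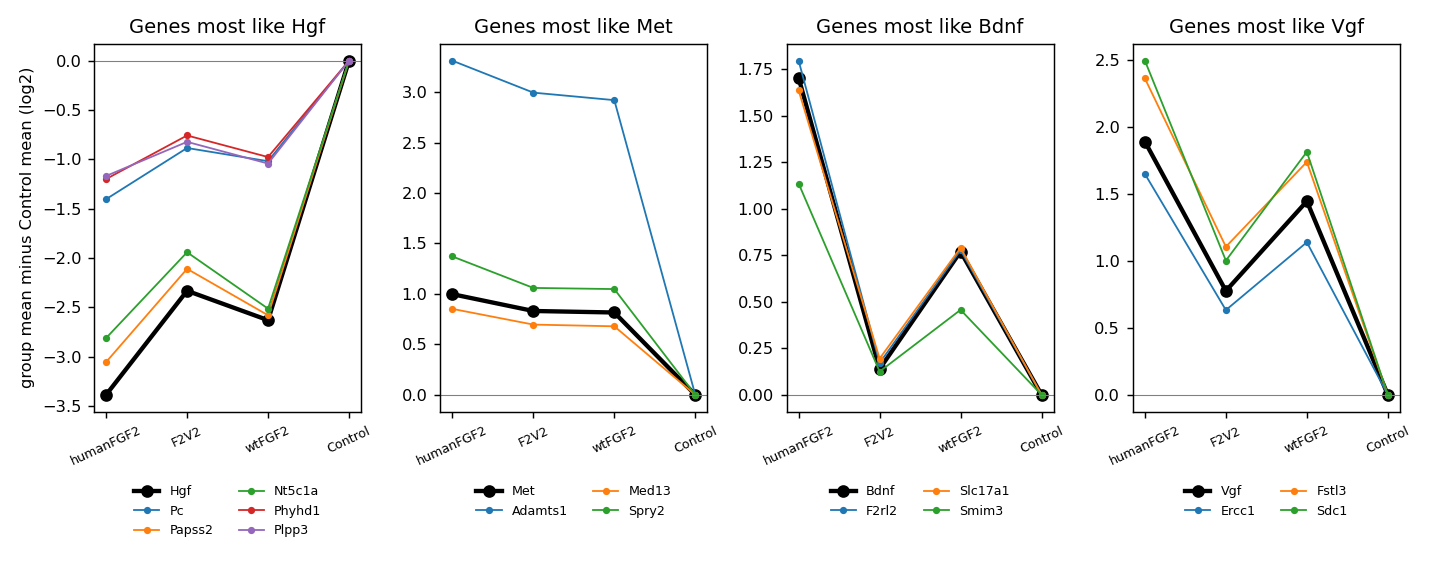
Group means minus the Control mean (log2) for Hgf, Met, Bdnf and Vgf (thick black lines) and the genes most like them over 16 arrays, with groups from left to right humanFGF2, F2V2, wtFGF2 and Control. The genes of a panel share the order of groups and differ in size, as for Adamts1 (means 10.70 with humanFGF2 and 7.39 in Control cultures) beside Met. The differences of Nt5c1a and Slc17a1 are lower bounds where a single mean lies under a log2 value of 5. For Slc17a1 with F2V2 both means lie under it (4.42, against 4.22 in Control cultures), so the size of that difference is not known.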

How the data were processed

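RNA was hybridised to Affymetrix Rat Gene 2.1 ST arrays. The deposited log2 values were made by the authors in Partek Genomics Suite 6.6, with GCRMA normalization of probe sets and a one-step Tukey's biweight per transcript cluster, and a genome build is not given in the sources used here. Scanner files were not used. The values ran from 3.02 to 14.49, with array medians of 5.81 to 5.92. The lowest correlation between arrays of a group was 0.996. The median SD between arrays of a group was 0.0802 with humanFGF2, 0.109 with F2V2, 0.0976 with wtFGF2 and 0.0907 in Control cultures, and the number of arrays limits the precision.

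The platform annotation named 15653 of 36685 clusters and a supplementary table of the study 724 more (its fold changes were not used). Of the 16377 clusters tested, 829 carried several symbols. The limma package 3.58.1 (lmFit, then eBayes; R 4.3.3) was run on the 12 arrays of humanFGF2, F2V2 and Control, and on all 16 arrays for comparisons with wtFGF2. p-values were two-sided and adjusted by the Benjamini-Hochberg method over all clusters, and the fit was first tested on simulated data. Members and lists were chosen with earlier results of these data known. Named are all members, up to 4 called genes of each pathway list and comparison by size, and the genes most like a member (5 for Hgf, 3 for others). A mean under a log2 value of 5 gives bounds only. Alternatives were no fold threshold, all clusters, removal of dim clusters, quantile or median scaling, a block for the replicate number, other priors, all groups fitted together and omission of single arrays.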

Additional observations from a re-analysis of the deposited data

Results flagged for a closer look

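In each of 24 groups of 4 arrays (6 genes by 4 groups), the highest and lowest array was set against the rest, and 3 groups held an array that stood apart from the others, where chance gives about 1 in 20 such groups. Hgf in humanFGF2 replicate 1 was 6.44 on the log2 scale, with the other arrays at 6.38 to 6.39. Hgf in Control replicate 3 was 9.84, with the other arrays at 9.76 to 9.77. Met in wtFGF2 replicate 3 was 7.88, with the other arrays at 7.93 to 7.94. In all 3 cases the gap was under 0.1 log2 units, and without each array in turn Hgf differed from Control by -3.40 to -3.37 with humanFGF2 and Met by 0.78 to 0.84 with wtFGF2.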

How the results depend on the processing

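With no fold threshold, 28, 18, 26, 15, 9 and 4 of the other pathway genes passed for humanFGF2, F2V2 and wtFGF2 minus Control, humanFGF2 minus F2V2, wtFGF2 minus humanFGF2 and wtFGF2 minus F2V2, against 11, 5, 7, 4, 1 and 0, as did 7533, 5493, 6487, 3532, 1360 and 632 of all clusters and 4 members instead of 2 for wtFGF2 minus humanFGF2. With unnamed clusters included, 5078, 2386 and 3457 were called for humanFGF2, F2V2 and wtFGF2 minus Control, against 3125, 1536 and 2144. Leaving out each array in turn, 0 to 1 other pathway genes were called for wtFGF2 minus F2V2 (1 without F2V2 replicate 1, F2V2 replicate 2 or wtFGF2 replicate 3). The difference of Ntf3, under the floor, was 0.04 for humanFGF2 minus Control with each array's median subtracted and -0.05 to 0.03 over the fits without an array, against -0.02, and that of Met for wtFGF2 minus F2V2 was -0.05 to 0.03, against -0.01. None of these differences passed the test. Ngfr left the call for humanFGF2 minus Control without Control replicate 2 (0.48).

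Samples with the same replicate number showed no clear shared deviation (correlations -0.17 to 0.22). With 4 arrays per group this cannot exclude that the numbers pair the arrays. With the replicate block, 5 members and 3120 clusters were called for humanFGF2 minus Control, and no call of a member changed in any comparison. Of the alternative values, 882 of the members' differences kept their direction and side of the threshold, 5 changed sign, 6 gained and 1 lost the call, while 425 counts stayed within 1.5 times and 19 did not. Subtracting array medians moved the median of all clusters by 0.06 and quantile normalization by 0.02 log2 units. Ntf3 was left out where dim clusters were removed. Low signal limits Ntf3, and 4 arrays per group limit the smaller differences of Ngfr.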
